A study of Mus musculus with 30 samples.

Results

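Expression of 5 apolipoprotein L genes, Apol6, Apol9a, Apol9b, Apol10a and Apol10b, was examined in tumor cells exposed to interferons or a STING agonist. The genes were taken by name, after Ensembl identifiers were matched to mouse symbols, and are 5 of the 49315 genes counted. All 5 are protein-coding genes on chromosome 15. Another 9 Apol-family genes were used for comparison.

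Bulk RNA sequencing was performed on 24 libraries of 2 mouse tumor lines, with 3 libraries in each of 8 groups. 6694c2 is a pancreatic ductal adenocarcinoma (PDAC) line from female mice carrying, among other alleles, a floxed p53 allele, Pdx-cre and a floxed YFP reporter, where Pdx-cre limits the recombination to the pancreatic lineage. B16F10 is a melanoma line. The labels give C57BL/6 as the genotype of both. Each line was cultured for 24 h with vehicle, IFNγ (100 ng/mL), IFNβ (1000 U/mL) or STING agonist (225 μg/mL). The labels call the source a tumor, whereas the study's methods describe cultured cells, and nothing says whether the 3 libraries of a group came from separate cultures. The p-values therefore measure only the spread between libraries, which may be technical.

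Apolipoprotein L proteins are amphipathic, membrane-associated proteins, most of them kept inside the cell, and are unrelated in sequence to the apolipoproteins of blood lipoproteins. The human member APOL1 is known as the serum factor that lyses trypanosomes. IFNγ signals through its receptor to transcription factors that bind GAS elements, and it induces IRF1. IFNβ signals through a complex that includes STAT2 and IRF9 and binds interferon-stimulated response elements (ISRE). STING agonists raise type I interferon through TBK1 and IRF3 in cells where the pathway is intact.

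The libraries held 15543131 to 32266795 reads on genes. The line labels were checked with marker genes. The summed level of 7 melanocyte genes was 14700 to 18500 CPM (reads on the gene divided by the TMM-scaled library size and multiplied by 1e6) in B16F10 libraries and 18.5 to 129 CPM in 6694c2 libraries. The summed level of 6 ductal epithelial genes was 12800 to 15100 CPM in 6694c2 libraries and 13.6 to 135 CPM in B16F10 libraries. Traces of each line's markers in the other moved with treatment. Ductal markers in B16F10 cells were at 102 to 135 CPM with STING agonist and 13.6 to 19.3 CPM with vehicle. Melanocyte markers in 6694c2 cells were at 18.5 to 22.3 CPM with STING agonist and 83.9 to 87.2 CPM with vehicle. No defining marker of either list was at 0 in any group. In bulk samples, fewer cells making a transcript and less transcript per cell cannot be told apart.

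On GRCm38, the 5 genes lie within 691653 bases. Apol6 (ENSMUSG00000033576) occupies 77044729 to 77057107 on the plus strand, and 64 of its exonic bases overlap exons of Mb, the myoglobin gene, on the opposite strand. Apol9a (ENSMUSG00000057346) occupies 77403789 to 77411080 on the minus strand, and its near-copy Apol9b (ENSMUSG00000068246) occupies 77729121 to 77736381 on the plus strand. Apol10a (ENSMUSG00000050982) occupies 77477047 to 77491069 on the plus strand, and Apol10b (ENSMUSG00000050014) occupies 77584158 to 77596125 on the minus strand. Other Apol genes lie between them.

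Promoter sequences are shown because the 4 genes below share one motif close to the start, although their responses differed. They come from the RefSeq promoter table (GRCm38.p6), in which 4 of the 5 genes had an entry, and run from 130 bases before the most upstream start to 10 bases after it, 5′ to 3′ on the gene's strand. Capitals mark matches to the ISRE core, searched on both strands as GAAA, any 2 bases and GAAA again. All of these matches lie on the strand opposite the gene and so read TTTC, 2 bases, TTTC below. The windows are chr15:77411071-77411210 (minus strand) for Apol9a, chr15:77728942-77729081 (plus strand) for Apol9b, chr15:77476917-77477056 (plus strand) for Apol10a and chr15:77596116-77596255 (minus strand) for Apol10b.
Apol9a: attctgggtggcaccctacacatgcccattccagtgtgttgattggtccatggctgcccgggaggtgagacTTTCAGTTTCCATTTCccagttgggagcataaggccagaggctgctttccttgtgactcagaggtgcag
Apol9b: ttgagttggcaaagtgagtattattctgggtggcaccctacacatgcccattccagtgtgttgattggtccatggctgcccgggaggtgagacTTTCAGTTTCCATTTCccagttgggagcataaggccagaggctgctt
Apol10a: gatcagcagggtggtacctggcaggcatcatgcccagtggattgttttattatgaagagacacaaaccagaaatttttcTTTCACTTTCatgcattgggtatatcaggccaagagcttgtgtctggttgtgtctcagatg
Apol10b: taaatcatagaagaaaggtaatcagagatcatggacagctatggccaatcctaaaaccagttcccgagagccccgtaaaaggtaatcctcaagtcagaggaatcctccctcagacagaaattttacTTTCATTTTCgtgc

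Apol9a and Apol9b each carried 2 overlapping copies of the motif in one stretch of 16 identical bases, and their 300-base windows shared an unbroken identical run of 278 bases. Apol10a and Apol10b each carried 1 copy, and the longest run these windows shared was 16 bases. The copy in Apol10a ended 42 bases before the annotated start, and that of Apol10b spanned its annotated start, from position -4 to position 6. The motif was present in 8 of the 12 Apol-family genes with a promoter entry and in 3.99% of the 27025 genes of the table (3.44% of its 32851 windows of the same 300 bases). Of the 4 genes shown, Apol10a alone held the GAS core TTCNNNGAA, a palindrome, which was found in 9.55% of all genes. Its match lay at positions -241 to -233, upstream of the stretch printed above. These are matches of letters, and binding was not measured.

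Apol9a and Apol9b also share transcribed sequence. Of all stretches of 100 bases in the GENCODE M21 transcripts of Apol9b, 36.7% occurred unchanged in those of Apol9a, and at 150 bases the share was 22.5%. No stretch of 100 bases of Apol6 or Apol10b occurred in another Apol gene, and 1.4% of those of Apol10a occurred in Apol11b. How the authors assigned reads that match both Apol9 genes is not given in the sources used here, so the split of reads between Apol9a and Apol9b is uncertain, and their sum is given as well. The treatment of such reads may also affect the sum and the level of each Apol9 gene.

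Apol6 was the gene that separated the 2 interferons most sharply. Human APOL6 has been described as a pro-apoptotic protein. In B16F10 cells treated with IFNγ, Apol6 was at 253, 283 and 234 CPM in the 3 libraries, against 0, 0.802 and 0.939 CPM with vehicle. With IFNβ it was at 1.13, 1.495 and 1.09 CPM, and with STING agonist at 0.120, 0.173 and 0.318 CPM. The IFNγ libraries stood far above all other B16F10 libraries. The rise with IFNγ was 8.69 ± 0.12 on the log2 scale (± SE, adjusted p = 1.51e-230 in edgeR's quasi-likelihood test). This is a 413-fold difference with a 95% interval of the fit of 350 to 487. Here and below, each SE is the size of the log2 difference divided by the square root of the test's F statistic. The 95% intervals of fitted differences are built from this derived SE, which is unstable for small differences and few reads. On the 44 reads of the vehicle group, the ratio of summed reads was 406 with a wider exact 95% counting interval of 302 to 559. By size of increase, Apol6 ranked 6 among the 21138 genes tested in this comparison.

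The smaller differences of Apol6 in B16F10 cells rested on few reads. The difference between IFNβ and vehicle was 1.02 ± 0.26 (log2, adjusted p = 0.000956 in edgeR), and the groups did not overlap. However, vehicle replicate 1 held 0 reads where the other vehicle libraries held 20 and 24, and without it the difference was 0.51 (edgeR adjusted p = 0.166). DESeq2 also gave no call (adjusted p = 0.268), and the IFNβ call was lost under 4 of 14 alternative settings in all. With STING agonist the fitted difference from vehicle was -1.57 ± 0.43 (edgeR adjusted p = 0.014), but the groups overlapped, with 2, 4 and 6 reads against 0, 20 and 24, and the call was lost under 8 of 14 alternative settings.

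In 6694c2 cells Apol6 was again highest with IFNγ, at a lower level than in B16F10 cells. With IFNγ it was at 20.3, 15.7 and 23.5 CPM, against 0.233, 0.167 and 0.0610 CPM with vehicle. With IFNβ it was at 0.0333, 0.226 and 0.405 CPM and with STING agonist at 0.236, 0.0721 and 0.106 CPM, and these overlapped the vehicle libraries. The rise with IFNγ was 6.97 ± 0.31 (log2 ± SE, edgeR adjusted p = 2.86e-22), a 126-fold difference (95% interval of the fit 81.3 to 194). The vehicle group held 8 reads in all, and the ratio of summed reads was 131 with a wider exact 95% counting interval of 66.1 to 303. The IFNβ difference was 0.49 ± 0.68 (log2 ± SE, edgeR adjusted p = 0.734), and its interval of 0.538- to 3.65-fold does not exclude a change like that in B16F10 cells.

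Set directly against each other, IFNβ left Apol6 lower than IFNγ by -7.67 ± 0.11 in B16F10 cells (edgeR adjusted p = 7.19e-227) and by -6.49 ± 0.27 in 6694c2 cells (edgeR adjusted p = 3.07e-23), both log2 differences ± SE. Summed over libraries, 18252 reads with IFNγ stood beside 94 with IFNβ in B16F10 cells, and 1313 beside 17 in 6694c2 cells. The IFNγ-treated 6694c2 cells held 12.7-fold less Apol6 than the IFNγ-treated B16F10 cells (log2 -3.67 ± 0.13, edgeR adjusted p = 8.4e-26), in a comparison added after the data were seen. Melanocyte transcripts in these 6694c2 libraries were at 0.548%, 0.832% and 0.231% of their IFNγ-treated B16F10 mean. Their part in the Apol6 level of 6694c2 cells was not tested.

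**Figure D1:**
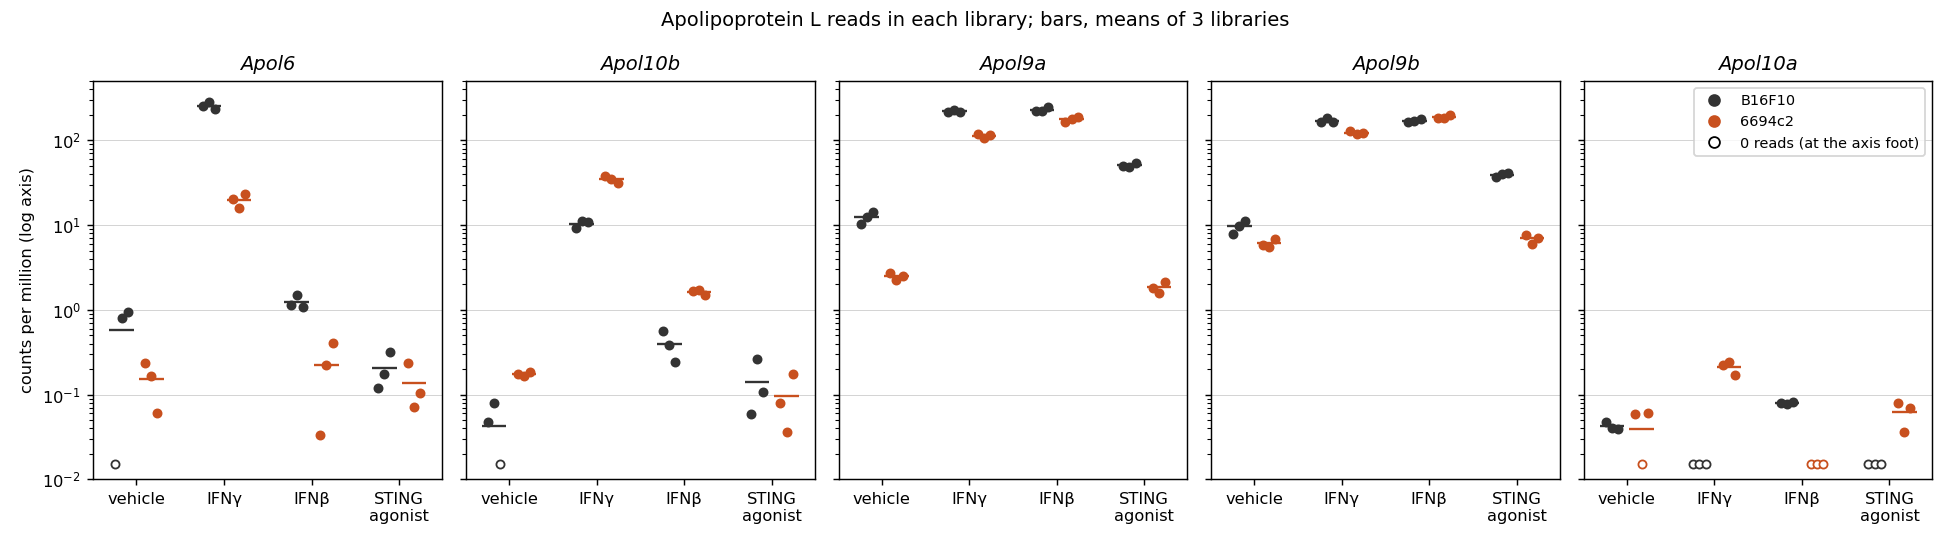
CPM (log axis) of the 5 genes in each library, by treatment, for B16F10 (dark) and 6694c2 (orange). Bars are means of 3 libraries and open points at the foot of the axis are libraries with 0 reads. Apol6 and Apol10b were high with IFNγ, whereas Apol9a and Apol9b were at 107.6 CPM or more with either interferon in both lines.

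Apol10b was the second gene with a larger response to IFNγ than to IFNβ, but it responded to both. No role is assigned to it here. In B16F10 cells Apol10b had 1, 2 and 0 reads with vehicle. With IFNγ it was at 9.31, 11.1 and 10.7 CPM (254, 236 and 244 reads), and with IFNβ at 0.565, 0.383 and 0.243 CPM (14, 10 and 6 reads). The STING agonist libraries had 1, 6 and 2 reads and overlapped those of the vehicle group (log2 1.73 ± 0.86, edgeR adjusted p = 0.366). The interferon groups were each above every vehicle library. The fitted rises were 7.77 ± 0.36 with IFNγ and 3.09 ± 0.66 with IFNβ (log2 ± SE, edgeR adjusted p = 4.06e-66 and 4.62e-05). Because the vehicle group held 3 reads in all, the ratio of summed reads is the safer measure. It was 239 for IFNγ (exact 95% counting interval 81.6 to 1160) and 9.72 for IFNβ (3.02 to 49.8).

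In 6694c2 cells Apol10b was at 38.2, 35.1 and 31.7 CPM with IFNγ and at 1.66, 1.72 and 1.51 CPM with IFNβ, against 0.175, 0.167 and 0.183 CPM with vehicle (3 reads in each library). With STING agonist it was at 0.0788, 0.0360 and 0.176 CPM. Both interferon groups lay above the vehicle group, and the STING agonist group overlapped it. The rise was 7.61 ± 0.22 with IFNγ and 3.21 ± 0.35 with IFNβ (log2 ± SE, edgeR adjusted p = 3.73e-29 and 1.32e-09), or 196-fold and 9.27-fold. By size of increase with IFNγ, Apol10b ranked 11 of 21138 genes in 6694c2 cells and 19 in B16F10 cells.

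The gap between the interferons was called in both lines. IFNβ left Apol10b lower than IFNγ by -4.68 ± 0.25 in B16F10 cells and by -4.40 ± 0.14 in 6694c2 cells (log2 ± SE, edgeR adjusted p = 3.42e-54 and 4.35e-27). The order of the lines was the reverse of that for Apol6. IFNγ-treated 6694c2 cells held 3.37-fold more Apol10b than IFNγ-treated B16F10 cells (95% interval 2.83 to 4.02, edgeR adjusted p = 6.05e-16, comparison added after the data were seen).

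Apol9a and Apol9b rose strongly with both interferons. They encode lipid-binding proteins known as interferon-induced in mouse cells. In B16F10 cells Apol9a was at 10.3, 12.5 and 14.2 CPM with vehicle, at 217, 228 and 214 CPM with IFNγ, at 219, 221 and 250 CPM with IFNβ and at 50.2, 48.6 and 54.4 CPM with STING agonist. Apol9b was at 7.89, 9.79 and 11.2 CPM with vehicle, at 164, 183 and 166 CPM with IFNγ, at 164, 169 and 180 CPM with IFNβ and at 36.7, 39.9 and 41.5 CPM with STING agonist. For both genes every treated library was above every vehicle library, and the STING agonist libraries lay between the vehicle and interferon libraries.

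The rises of the pair in B16F10 cells were close to each other. With IFNγ they were 4.14 ± 0.07 for Apol9a and 4.14 ± 0.08 for Apol9b, with IFNβ 4.22 ± 0.07 and 4.15 ± 0.08, and with STING agonist 2.03 ± 0.07 and 2.02 ± 0.08 (log2 ± SE). As folds these are 17.7 and 17.6, 18.6 and 17.7, and 4.09 and 4.04. The highest of the 6 edgeR adjusted p-values was 4.34e-81. Between IFNβ and IFNγ the groups overlapped and no difference was called. The fold of IFNβ over IFNγ was 1.06 for Apol9a (95% interval 0.977 to 1.14, edgeR adjusted p = 0.462) and 1.01 for Apol9b (0.93 to 1.09, edgeR adjusted p = 0.978).

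In 6694c2 cells the pair started lower and the fitted rises were larger. For Apol9b with IFNγ, the difference between the lines in the rise was not called (log2 0.20 ± 0.14, edgeR adjusted p = 0.487). Apol9a was at 2.74, 2.23 and 2.50 CPM with vehicle, at 119, 107.6 and 114 CPM with IFNγ and at 163, 176 and 191 CPM with IFNβ. Apol9b was at 5.89, 5.47 and 6.89 CPM with vehicle, at 127, 118 and 123 CPM with IFNγ and at 181, 184 and 196 CPM with IFNβ. For both genes the 3 groups were fully separated, with IFNβ highest. Apol9a rose by 5.53 ± 0.11 with IFNγ and 6.18 ± 0.11 with IFNβ, and Apol9b by 4.35 ± 0.10 and 4.98 ± 0.10 (log2 ± SE, with 4.73e-37 the lowest and 1.4e-33 the highest edgeR adjusted p). The level with IFNβ exceeded that with IFNγ 1.58-fold for Apol9a (95% interval 1.42 to 1.74, edgeR adjusted p = 1.48e-09) and 1.54-fold for Apol9b (1.40 to 1.71, edgeR adjusted p = 3.81e-09).

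The STING agonist raised the pair in one line. In 6694c2 cells Apol9a was at 1.81, 1.59 and 2.15 CPM with STING agonist, a fitted 0.746-fold of vehicle (95% interval 0.587 to 0.949, edgeR unadjusted p = 0.0182, adjusted p = 0.494). Apol9b was at 7.72, 6.05 and 7.08 CPM, a fitted 1.15-fold of vehicle (0.976 to 1.34, edgeR adjusted p = 0.717). The Apol9a libraries lay below the vehicle libraries and those of Apol9b overlapped them. The difference between the lines in the STING agonist effect was itself called, at -2.47 ± 0.21 for Apol9a and -1.83 ± 0.16 for Apol9b (log2, 6694c2 minus B16F10, edgeR adjusted p = 2.11e-10 and 1.74e-10). Summed to one feature, the pair differed by -1.999 ± 0.14 (edgeR adjusted p = 1.84e-12).

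Over the 5 genes, the calls against vehicle can be set beside those of all genes tested. With IFNγ, 4 of the 5 were called in B16F10 cells, all higher, where 22.8% of all genes were called in either direction, and 4 in 6694c2 cells, all higher, where 13.5% were. With IFNβ, 4 were called in B16F10 cells, all higher, against 24.0% of all genes, and 3 in 6694c2 cells, all higher, against 18.2%. The Apol6 call with IFNβ in B16F10 cells was lost under 4 of 14 alternative settings. With STING agonist, 3 were called in B16F10 cells, 2 of them higher, against 3.46% of all genes. The 2 higher were the near-copies Apol9a and Apol9b. The lower call, of Apol6, rested on few reads in overlapping groups and was lost under 8 of 14 alternative settings. In 6694c2 cells edgeR called 0 of the 5, with 1 at an unadjusted p under 0.05, and DESeq2 called 0, where edgeR called 0.36% of all genes. The median log2 change of the 5 genes was 4.14 with IFNγ in B16F10 cells and 5.53 in 6694c2 cells, beside 0.0 over all genes in both. All 5 genes passed the filter of at least 10 reads over the 24 libraries, which a gene with few reads passes through its highest groups. The comparisons within a line share their vehicle libraries.

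**Figure D2:**
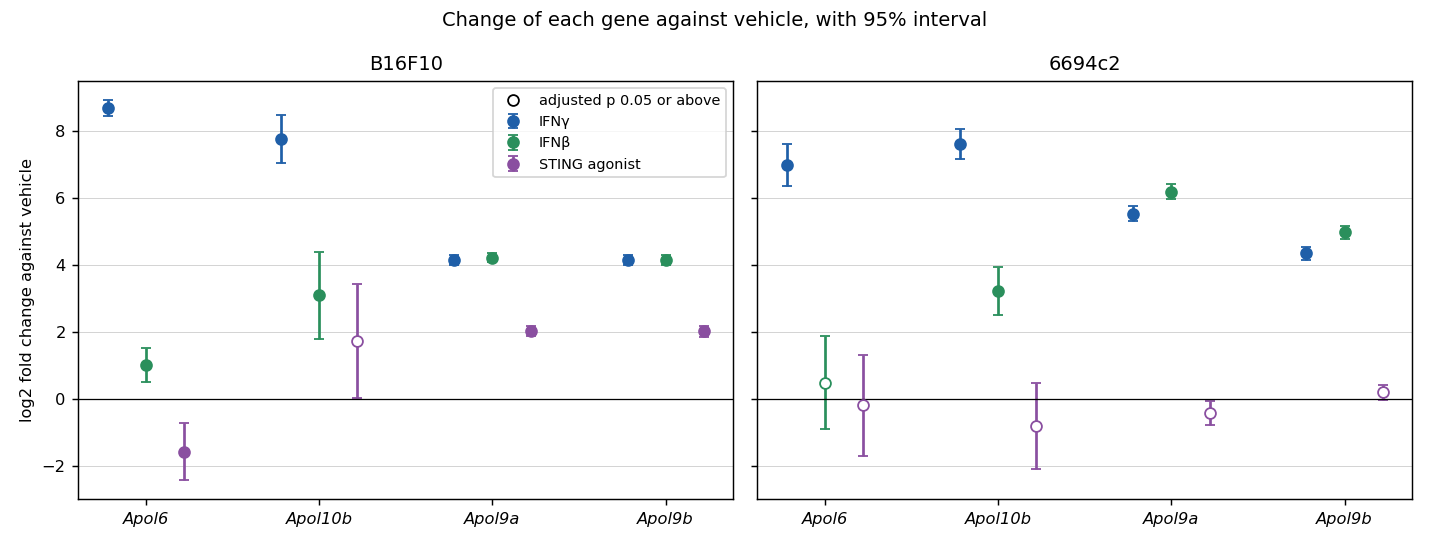
Log2 fold change against vehicle of the 4 genes with more than 29 reads in all, by treatment and line, with 95% intervals derived from the quasi-likelihood F test. Filled points have an adjusted p under 0.05. In B16F10 cells Apol9a and Apol9b rose with all 3 treatments, and in 6694c2 cells no STING agonist point was filled.

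Between the interferons, 2 of the 5 genes were called in B16F10 cells, both lower with IFNβ, where 14.5% of all genes were called in either direction. In 6694c2 cells all 5 were called, 3 lower and 2 higher, where 13.9% were called. The third lower gene was Apol10a, which rested on 13 reads with IFNγ and 0 with IFNβ. Against IFNγ, 4 of the 5 were called with STING agonist in each line, all lower, where 20.0% (B16F10) and 12.8% (6694c2) of all genes were called. Against IFNβ, 3 of the 5 were called in each, all lower, where 19.8% and 17.5% were called.

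Apol10a was at the limit of detection. It had 29 reads in all 24 libraries and never more than 5 in one. In 6694c2 cells it had 4, 4 and 5 reads with IFNγ, 1, 0 and 1 with vehicle, 0 in each IFNβ library and 2, 1 and 2 with STING agonist. In B16F10 cells it had 1 read in each vehicle library, 2 in each IFNβ library and 0 with IFNγ or STING agonist. The ratio of summed reads for IFNγ over vehicle in 6694c2 cells was 5.18, with an exact 95% counting interval of 1.17 to 47.2, and edgeR gave no call (adjusted p = 0.271). With the IFNβ group set at a floor of 3 reads, IFNγ-treated 6694c2 cells were 5.41-fold higher. That value takes the IFNγ reads as exact and is not a lower limit of the difference. The difference between IFNβ and IFNγ was called by edgeR (adjusted p = 0.0142). That call was lost without IFNβ replicate 1 (adjusted p = 0.0515) or replicate 3 (adjusted p = 0.0519). Counting intervals and floors cover counting error only.

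The gap between the lines varied in size with the treatment. With vehicle, Apol9a was 0.201-fold (95% interval 0.166 to 0.244) and Apol9b 0.627-fold (0.530 to 0.741) in 6694c2 cells relative to B16F10 cells (edgeR adjusted p = 2.35e-18 and 4.64e-06). Apol6 was also called lower (log2 -1.95 ± 0.72, edgeR adjusted p = 0.0186), although the groups overlapped, and Apol10b higher (1.93 ± 0.84, edgeR adjusted p = 0.0471), on 9 reads against 3. These 4 calls fell to 2 in some settings, and 58.0% of all genes were called between the vehicle groups. With STING agonist the gap of Apol9a was wider, at 27.5-fold lower in 6694c2 cells, and that of Apol9b was 5.68-fold (edgeR adjusted p = 5.61e-32 and 4.49e-25). With IFNγ these gaps were 1.93-fold and 1.39-fold (edgeR adjusted p = 5.86e-15 and 2.66e-07). With IFNβ, the Apol9a difference was -0.38 on the log2 scale (edgeR adjusted p = 1.13e-05), though -0.14 with no call for the summed pair (adjusted p = 0.0921), and Apol9b was 1.09-fold in 6694c2 relative to B16F10 cells with no call (95% interval 0.989 to 1.21, edgeR adjusted p = 0.118). In these comparisons of treated cells, added after the data were seen, 59.2% (STING agonist), 59.6% (IFNγ) and 61.4% (IFNβ) of all genes were called.

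Tests of the difference between the lines in each response gave calls for the Apol9 pair. The IFNγ response of Apol9a was larger in 6694c2 cells by 1.36 ± 0.16 (log2, edgeR adjusted p = 4.92e-08), whereas that of Apol9b differed by 0.20 ± 0.14 (edgeR adjusted p = 0.487). The IFNβ response was larger by 1.93 ± 0.16 for Apol9a (edgeR adjusted p = 3.42e-12) and by 0.80 ± 0.14 for Apol9b (edgeR adjusted p = 5.48e-05). For the summed pair the differences were 0.64 ± 0.13 and 1.22 ± 0.13 (edgeR adjusted p = 0.000561 and 2.65e-09). Of the 5 genes, 1 was called in the IFNγ interaction and 2 each in those of IFNβ and STING agonist, where 9.47%, 12.1% and 2.12% of all genes were called. For Apol6 and Apol10b the few vehicle reads left wide intervals, which may still be too narrow. For Apol10b with IFNγ in B16F10 cells, the fit gave 133- to 358-fold and counting error alone 81.6- to 1160-fold. The IFNγ response of Apol6 in 6694c2 cells was 0.302 of that in B16F10 cells with a 95% interval of 0.0762 to 1.20 (edgeR adjusted p = 0.336), and that of Apol10b was 0.887 with an interval of 0.410 to 1.92 (edgeR adjusted p = 0.984).

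The split of reads within the Apol9 pair differed between the lines. In B16F10 cells Apol9b took 41.9% to 45.1% of the reads of the pair in all 12 libraries. In 6694c2 vehicle libraries it took 68.2%, 71.0% and 73.4%, with Wilson 95% intervals reaching from 60.4% to 79.7%. With IFNγ the share was 51.6%, 52.4% and 51.8%, with IFNβ 52.6%, 51.0% and 50.7%, and with STING agonist 81.0%, 79.3% and 76.7%. Every 6694c2 library was above every B16F10 library, by 19.88 percentage points on average over the treatments (permutation test, 12 against 12 libraries, two-sided p = 2e-05, the smallest these permutations can give). The permutations ignored treatment, although the 6694c2 share varied with it, so this p treats libraries of different treatments as exchangeable. Between the vehicle groups alone the gap was 27.06 points (exact permutation p = 0.1, the lowest that 3 against 3 libraries can give). Between treatments of one line, 3 libraries against 3 cannot give an exact permutation p below 0.1. The mean share differed from vehicle by -18.92 points with IFNγ, -19.43 points with IFNβ and 8.11 points with STING agonist in 6694c2 cells, each with complete separation of the groups (exact permutation p = 0.1, two-sided, n = 3 each). In B16F10 cells the mean share differed from vehicle by -1.15 points with IFNβ, also with complete separation of the groups (exact permutation p = 0.1, n = 3 each). The groups overlapped with IFNγ, at -0.053 points, and with STING agonist, at -0.283 points (exact permutation p = 1.0 and 0.8, n = 3 each). The total behind each share ran from 138 reads in a 6694c2 vehicle library to 10651 in a B16F10 IFNβ library. Whether reads shared by the 2 genes had a part in these splits was not tested.

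**Figure D3:**
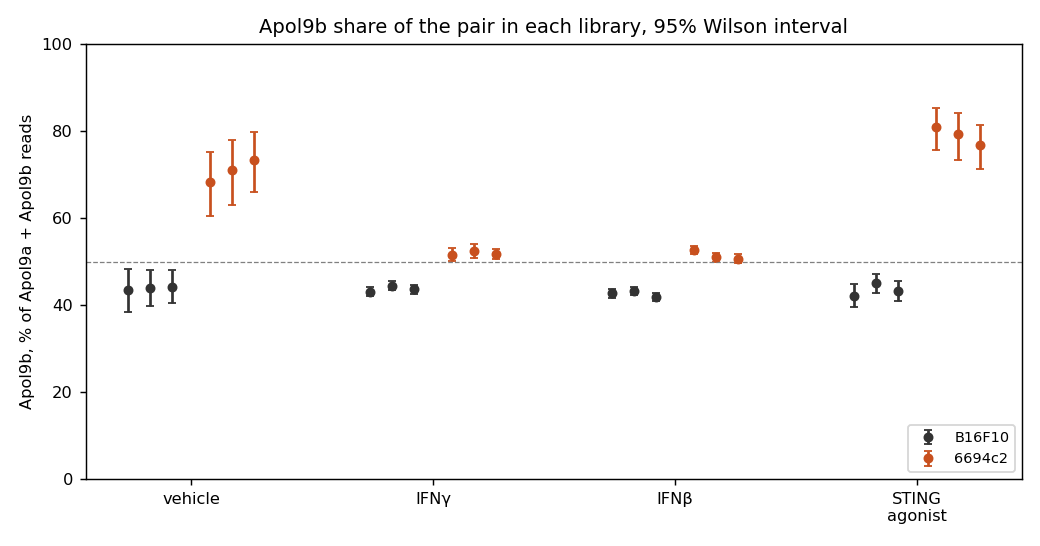
Apol9b as a percent of Apol9a plus Apol9b reads in each library, with Wilson 95% intervals, for B16F10 (dark) and 6694c2 (orange). The dashed line marks 50%. The B16F10 libraries stayed between 41.9% and 45.1%, and the 6694c2 libraries ran from 50.7% with IFNβ to 81.0% with STING agonist.

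Per kilobase of exon, the order of the genes changed with treatment. With vehicle, Apol9a and Apol9b were at 7.83 ± 1.24 and 6.23 ± 1.07 RPKM (CPM per kilobase of exon, mean ± SD, n = 3) in B16F10 cells and at 1.58 ± 0.16 and 3.94 ± 0.47 RPKM in 6694c2 cells. The other 3 genes were each below 0.2 RPKM in both lines. With IFNγ in B16F10 cells the order was Apol9a (140 ± 4.82 RPKM), Apol9b (111 ± 6.82), Apol6 (57.1 ± 5.51), Apol10b (5.22 ± 0.47) and Apol10a at 0. In 6694c2 cells it was Apol9b (79.5 ± 2.79 RPKM), Apol9a (72.2 ± 3.63), Apol10b (17.6 ± 1.64), Apol6 (4.41 ± 0.87) and Apol10a (0.0649 ± 0.0118). Apol6 thus stood above Apol10b in B16F10 cells and below it in 6694c2 cells. These orders depend on the exon length used, which was 4499 bases for Apol6, 1573 for Apol9a and 1545 for Apol9b. Their longest GENCODE M21 transcripts had 2314, 4246 and 1573 bases, and the order at those lengths was not computed.

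Ordered by level within one gene, neighbouring treatments were not always distinct. For Apol9a and Apol9b in B16F10 cells, IFNβ and IFNγ did not differ beyond their spread, while STING agonist and vehicle did. In 6694c2 cells the STING agonist and vehicle levels of Apol6, Apol9a, Apol9b and Apol10b gave no call, nor did the IFNβ and vehicle levels of Apol6. In B16F10 cells Apol10b gave no call between IFNβ and STING agonist (log2 -1.36 ± 0.53, edgeR adjusted p = 0.0538), and it was called without STING agonist replicate 2 (-2.18, adjusted p = 0.0191).

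Of the 9 other family members, 6 passed the filter, among them Apol7d, which is annotated as antisense and lies on chromosome 1. In 6694c2 cells, 3 of these 6 were called with IFNγ, all higher, where 13.5% of all genes were called, and 2 with IFNβ, both higher, where 18.2% were. Apol7a was at 8.35, 7.81 and 11.2 CPM with vehicle, 72.4, 69.7 and 67.5 CPM with IFNγ and 48.3, 50.5 and 46.7 CPM with IFNβ, and rose by 2.95 ± 0.10 and 2.45 ± 0.10 (log2 ± SE, edgeR adjusted p = 1.61e-26 and 1.55e-23). Apol7e had 0 reads in each vehicle library and 25, 23 and 41 with IFNγ. Apol8 had 2, 1 and 0 reads with vehicle and 20, 16 and 36 with IFNγ. In B16F10 cells Apol7a alone of the 6 was called higher with IFNγ, from 5, 3 and 1 reads to 11, 21 and 9. Apold1, a distant relative on another chromosome expressed in endothelium, was called lower there with all 3 treatments, by -0.39, -0.33 and -0.20 on the log2 scale.

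**Figure D4:**
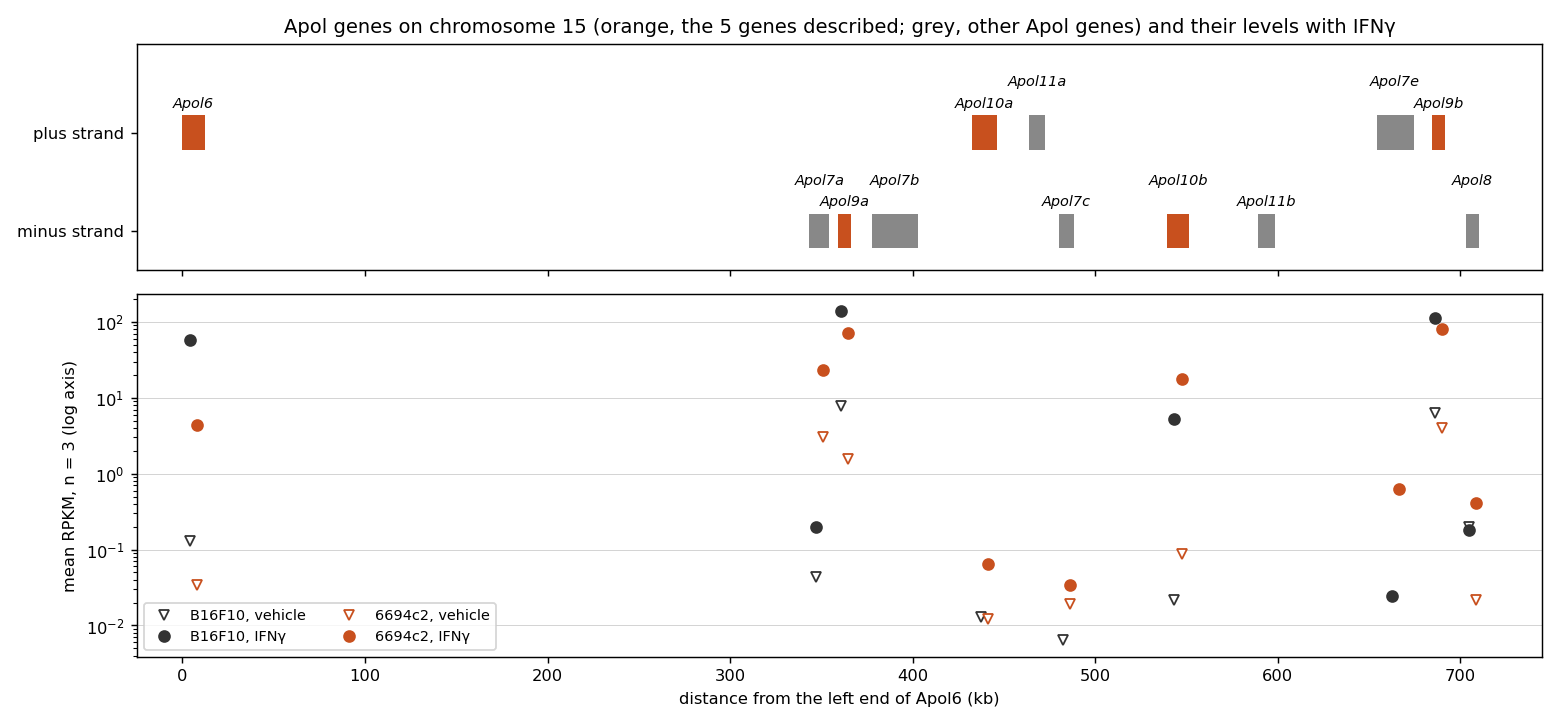
Upper panel, the Apol genes of chromosome 15 by strand and by distance in kilobases from the left end of Apol6, with the 5 genes in orange. Lower panel, mean RPKM (n = 3, log axis) with vehicle (open triangles) and IFNγ (filled circles) in each line, with means of 0 not drawn. Apol9a and Apol9b, in separate parts of the cluster, were highest with IFNγ in both lines.

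Of the genes outside the family but within 200 kb of the 5 genes, 14 passed the filter. With IFNγ, 2 were called higher and 2 lower in B16F10 cells, where 22.8% of all genes were called, and 3 higher and 1 lower in 6694c2 cells, where 13.5% were. With IFNβ, 3 were called higher and 3 lower in B16F10 cells, against 24.0% of all genes, and 2 higher and 1 lower in 6694c2 cells, against 18.2%. With STING agonist, 1 was called lower in B16F10 cells, against 3.46% of all genes, and 0 were called in 6694c2 cells, against 0.36%. The largest called rise with IFNγ in both lines was that of 1110038F14Rik, at 1.75 ± 0.07 and 1.01 ± 0.09 (log2 ± SE, edgeR adjusted p = 2.52e-84 and 1.15e-12). Mb, whose exons overlap those of Apol6, was not called with IFNγ in either line. It was called higher with IFNβ in B16F10 cells (log2 1.20 ± 0.27, edgeR adjusted p = 8.52e-05). Strand use in the counting is not given in the sources used here.

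The interferon signalling genes gave the setting of these responses. Of 13 such genes (receptors, kinases, STATs, IRF9, IRF1 and inhibitors), 10 were called higher and 1 lower with IFNγ in B16F10 cells, and 8 higher and 1 lower in 6694c2 cells, with median log2 changes of 0.87 and 1.08. With IFNβ, 9 were higher and 1 lower in B16F10 cells, and 9 higher and 0 lower in 6694c2 cells. With STING agonist, 5 were called higher in B16F10 cells (among them Irf1 and Usp18) and 0 of 13 in 6694c2 cells. Irf1, the transcription factor induced by IFNγ, rose by 5.69 with IFNγ and 1.68 with IFNβ in B16F10 cells and by 4.70 and 2.28 in 6694c2 cells (log2, all called). Of the 5 STING pathway genes tested, 0 were called with STING agonist in B16F10 cells, and 1, Irf7, was called higher in 6694c2 cells. Among 12 apolipoproteins of other families, 11 were tested. With IFNγ, 1 was called higher and 1 lower in B16F10 cells, and 1 higher in 6694c2 cells. With IFNβ, 2 were called higher and 1 lower in each line. The largest called rise among them was that of Apod, the lipocalin apolipoprotein D, with IFNβ in B16F10 cells, at 20.1-fold (95% interval 17.6 to 22.9, edgeR adjusted p = 4.07e-157). With STING agonist, 1 was called lower in 6694c2 cells. Over all genes tested, 22.8% were called with IFNγ in B16F10 cells and 13.5% in 6694c2 cells. With IFNβ these shares were 24.0% and 18.2%, and with STING agonist 3.46% and 0.36%. With either interferon, the counts of the 11 apolipoproteins were near the shares of all genes.

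The genes whose pattern over the 8 group means was most like each of the 4 measurable genes were found by Pearson's r of log2 CPM over 13353 genes. For Apol6 they were Gbp11 (r = 0.994), Nr1h2 (0.982) and Enc1 (0.982). For Apol10b they included Batf2 (0.990) and Irf1 (0.982). For Apol9a they were Parp9 (0.987), Parp12 (0.986) and Trim21 (0.986), and for Apol9b they were Oasl2 (0.993), Dtx3l (0.983) and Erg28 (0.978). Among the genes themselves, r was 0.973 between Apol9a and Apol9b, 0.823 between Apol6 and Apol10b and 0.572 between Apol6 and Apol9a. These values describe 8 group means and share their libraries.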

How the data were processed

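The authors trimmed adaptors with cutadapt 1.14, aligned paired-end reads of polyA RNA with STAR 2.7.9a, used Rsubread for gene-level counting, and the raw read counts were deposited without normalization. The submitters' processing notes name mm10. The annotation release, strand setting and treatment of multi-mapping reads are not given in the sources used here. Of 49056 genes also in GENCODE M21, 91.4% had the same position. Symbols were found for 48970 of 49315 identifiers.

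Genes with at least 10 reads combined over 24 libraries (21138 genes) were tested with edgeR 4.0.16 in R 4.3.3 (TMM, quasi-likelihood test, Benjamini-Hochberg adjustment over all genes, called at an adjusted p under 0.05). Comparisons within a line used that line's 12 libraries, and those between lines all 24. CPM and RPKM use TMM sizes over 24 libraries. Alternatives were DESeq2 1.42.0, RLE, other filters, a robust fit, a replicate block, Apol9a and Apol9b summed, all libraries in one fit, and each library left out. No replicate libraries were alike to within counting error. The fits were also run on simulated counts with known changes. These changes were placed only in genes whose simulated vehicle level was above that of Apol6, Apol10a and Apol10b. That run does not cover vehicle groups with so few reads. The genes, gene lists and tests were chosen with earlier results of these data known. Named are the 5 genes, members of the lists, genes within 200 kb, and the 3 most alike by pattern, except for items that are not reported here. 6 single-cell samples were not analysed here.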

Additional observations from a re-analysis of the deposited data

Results flagged for a closer look

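Responses that differed between the lines by a test of the difference itself (edgeR's quasi-likelihood test over all 24 libraries, 6694c2 minus B16F10, log2) came from the Apol9 pair alone among the 5 genes. For Apol9a the differences were 1.36 for IFNγ, 1.93 for IFNβ and -2.47 for STING agonist. For Apol9b they were 0.80 for IFNβ and -1.83 for STING agonist. With the pair summed they were 0.64, 1.22 and -1.999, all called. Groups of 3 libraries were not screened for single outlying libraries.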

How the results depend on the processing

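For Apol9a, Apol9b and Apol10b, each call against vehicle was kept under every alternative that was run, as were the IFNγ calls of Apol6. The number of the 5 genes called stayed within 1.5 times the reported number except as follows. With Apol9a and Apol9b summed, 1 gene was called in the IFNβ and STING agonist interactions and between STING agonist-treated cells of the 2 lines. Between the vehicle groups 2 were called with the robust fit, and leaving out single libraries gave 2 to 4, with 2 without B16F10 vehicle replicate 3 or 6694c2 vehicle replicate 3. In the robust fit the Apol6 difference between STING agonist and IFNβ in B16F10 cells had an adjusted p of 0.0527.

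The signs that turned belonged to differences that were not called. The Apol9b difference between IFNβ and IFNγ in B16F10 cells was -0.004 with RLE and with DESeq2, -9.96e-05 with all 24 libraries in one fit, and -0.029 to 0.063 over all alternatives, with -0.026 without IFNγ replicate 1, -0.008 without IFNγ replicate 3 and -0.029 without IFNβ replicate 3. In 6694c2 cells Apol6 gave -0.38 for IFNβ against vehicle (-0.38 to 1.07 over left-out libraries) and 0.192 for STING agonist against IFNβ (-1.263 to 0.192), both without IFNβ replicate 3. For STING agonist against vehicle it gave 0.207 without vehicle replicate 1 and 0.108 without STING agonist replicate 2 (-0.762 to 0.207). The summed Apol9 pair gave 0.041 for STING agonist against vehicle there. For interactions, Apol10b gave 0.452 for IFNγ without B16F10 vehicle replicate 3 (-0.945 to 0.452), and for IFNβ -0.022 with DESeq2, -0.676 without B16F10 vehicle replicate 2 and -0.109 without B16F10 IFNβ replicate 3 (-0.676 to 0.721). Apol6 gave 0.027 for IFNβ without 6694c2 IFNβ replicate 1 (-1.425 to 0.027). Apol10b between STING agonist-treated cells of the lines gave 0.171 without B16F10 STING agonist replicate 2 (-1.356 to 0.171). The cause was not tested.

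Replicate numbers are in the titles, but same-numbered libraries did not deviate together (correlations -0.119 to 0.11). With the replicate block, Apol10b in B16F10 cells was called lower with STING agonist than with IFNβ (-1.38, adjusted p = 0.0392), and the vehicle groups gave 3 calls in place of 4. Depth limits Apol10a throughout, Apol10b with vehicle and Apol6 outside IFNγ.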
